A study of Mus musculus with 12 samples.

Results

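*Ide*, *Slc7a1* and *Gm20594* are 3 of the 21669 genes listed in count tables from adult mouse left ventricle. They were chosen by their ribosome footprints, as counts per library total. In each, all footprint libraries from animals lacking *Rpl3l* (Rpl3l-/-, KO) lay above all wild-type (WT) footprint libraries. The rule took such genes from among the strongest of the data. The footprint difference is therefore the reason for their choice and is described here with no test. The rule of choice used no values of the RNA libraries of the same genotypes, though earlier results of these data were known when it was applied. Whether the RNA followed was tested. In short, the *Ide* RNA estimate was higher in KO by a similar factor as the footprints but did not pass the test over all genes, the *Gm20594* RNA was not higher, and *Slc7a1* had almost no RNA counts in either genotype.

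The study profiled ribosome-protected fragments (RPF, the mRNA pieces left after RNase I digestion of a lysate made with cycloheximide) and polyadenylated RNA from undigested lysate. There are 4 groups of 3 libraries, WT and KO for each assay, described as biological triplicates; whether each library came from its own animal is not stated, and p-values measure only the spread between these libraries. The KO groups carry the genotype Rpl3l-/- and no other allele or treatment is given in the labels. The strain, sex, exact age and the kind of deletion are not given in the sources used here. *Rpl3l* encodes a heart and skeletal muscle paralog of the large-subunit ribosomal protein *Rpl3*. The tissue is whole ventricle, so a level is a sum over all its cell types, and fewer cells of a type and less RNA per cell cannot be told apart.

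*Ide* encodes insulin-degrading enzyme, a zinc metallopeptidase of the M16 family that cleaves insulin, amyloid beta and other small peptides. *Slc7a1* encodes CAT-1, a cationic amino acid transporter of the plasma membrane that carries arginine, lysine and ornithine into cells, and whose mRNA is known for translation that responds to amino acid supply. *Gm20594* is a predicted gene whose synonym in RefSeq is Mtrnr2l, a name that refers to mt-Rnr2, the 16S ribosomal RNA gene of mitochondrial DNA. Ribosome footprints report the ribosomes sitting on an mRNA, so a gene can gain footprints through more mRNA, through more ribosomes per mRNA, or through both.

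Each gene was represented by a single transcript. Ide-201 (gene ENSMUSG00000056999.15) has 24 exons and lies on chromosome 19, minus strand, between 37268743 and 37330613 in GRCm38 as annotated by GENCODE M21. Its 4962 bases hold 2960 coding bases without the annotated start of the reading frame. Slc7a1-201 (gene ENSMUSG00000041313.14) has 13 exons and lies on chromosome 5, minus strand, between 148327410 and 148399904. Its 7179 bases hold 1866 coding bases, and 5033 bases follow them, stop codon included. Gm20594-201 (gene ENSMUSG00000096887.2) is a single exon on chromosome 6, plus strand, between 79817916 and 79818364, with 449 bases of which 111 are coding and 335 precede the coding part. No exon of another annotated gene overlapped the exons of these 3 transcripts.

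The *Gm20594* transcript resembled the mitochondrial 16S rRNA along nearly its whole length, which bears on what its counts measure. A local alignment paired its bases 1 to 435 with bases 645 to 1077 of mt-Rnr2, with 388 of 439 alignment columns identical (88.4%). The likeness was closest in the coding part, where 96 of 101 columns were identical (95.0%) and the longest identical run held 65 bases. The aligned coding bases of *Gm20594* (GRCm38 chr6:79818251-79818350, plus strand) and the matching stretch of mt-Rnr2 (chrM:2070-2170, plus strand) are shown 5′ to 3′, read from GENCODE M21, with bases that are identical in the alignment in capitals.
Gm20594: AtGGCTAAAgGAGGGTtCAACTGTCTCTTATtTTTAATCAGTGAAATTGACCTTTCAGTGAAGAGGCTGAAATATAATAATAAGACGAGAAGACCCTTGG
mt-Rnr2: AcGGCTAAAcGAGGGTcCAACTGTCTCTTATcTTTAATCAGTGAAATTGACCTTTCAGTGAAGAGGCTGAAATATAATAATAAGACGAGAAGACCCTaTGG

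A window of 28 bases, about the length of a footprint, was slid along each transcript and compared with all other GENCODE M21 transcripts on the same strand. Of the 422 windows of *Gm20594*, 49 were identical to mt-Rnr2, 111 lay within 1 mismatch of it and 170 within 2. Of its 87 coding windows, 38 were identical to mt-Rnr2. Apart from mt-Rnr2, no gene shared an identical window with *Gm20594*. The count tables hold 10 rows of mitochondrially encoded mRNAs and 0 rows for mt-Rnr2 or for mt-Rnr1, the other mitochondrial rRNA. How many of the reads counted for *Gm20594* came from mt-Rnr2 was not tested, since count tables do not show it.

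**Figure D1:**
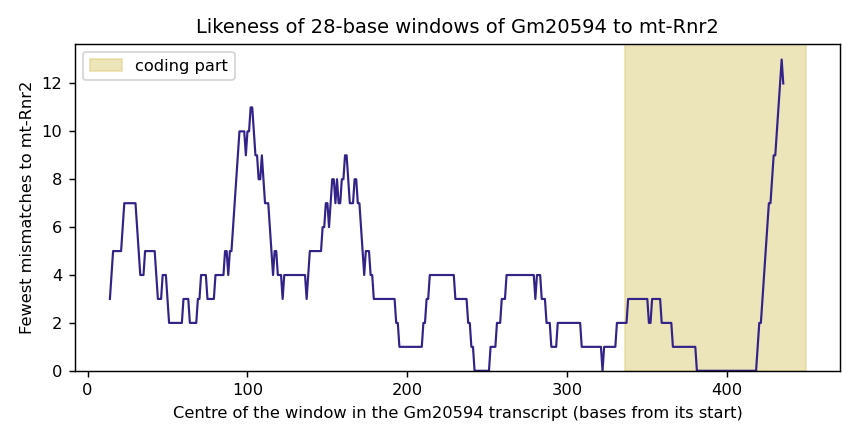
Fewest mismatches (vertical axis) between each window of 28 bases of the Gm20594 transcript and any window of mt-Rnr2, against the centre of the window in bases from the start of the transcript. The shaded span is the coding part, where 38 of 87 windows had 0 mismatches.

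The other 2 genes had unique coding sequences at this length. *Ide* had 0 of 4935 windows identical to a transcript of another gene. *Slc7a1* had 0 of 1842 coding windows identical to another gene, and 60 of all its 7152 windows, which therefore lay outside the coding part. Its closest listed paralog *Slc7a2*, another cationic amino acid transporter, lay within 2 mismatches of 21 of the 1842 coding windows, and *Slc7a3* of 0.

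Library totals ran from 3827862 to 7474602 counts in RPF and from 6635242 to 8459004 in RNA. The targeted gene *Rpl3l* checked the labels: its mean level in KO was 8.67 counts per 1000000 of the library total (CPM) against 228 in WT in RPF, and 46.3 against 358 in RNA, with no overlap of the groups. In RPF the first principal component (38.2% of variance) set WT 1 apart from the other 5 libraries. In RNA it (46.2%) set WT 3, KO 1 and KO 3 apart from WT 1, WT 2 and KO 2, a split that does not follow genotype. The 8 cardiomyocyte markers were all detected. They summed to between 106747 and 113198 CPM in RPF WT and between 104562 and 110841 in RPF KO. In RPF, 2 of the 8 had every KO library below every WT library, an order seen in 5.74% of all genes tested. These were *Myl2* (13310 ± 1495 CPM in WT and 10844 ± 235 in KO) and *Tnni3* (9931 ± 274 and 8307 ± 697, SD, n = 3 per group). The 5 atrial markers summed to between 2432 and 3389 CPM in RPF WT and between 2730 and 3559 in RPF KO, and 2 of the 5 had every KO library above every WT library, an order seen in 6.24% of all genes tested in RPF. In RNA they summed to between 1894 and 2381 CPM in WT and between 2094 and 4342 in KO, with a median log2 fold change of 0.63 over the 4 tested, and 1 of the 4 had KO wholly above WT (4.73% of all genes). *Bmp10*, an atrial growth factor, had 40.4 ± 26 CPM of footprints in WT and 133 ± 61 in KO (SD, n = 3 per group). Before adjustment, edgeR gave a p under 0.05 for 3 of the 5 atrial markers in RPF and 3 of 4 in RNA. The same held for 2 of the 8 cardiomyocyte markers in RPF and 0 in RNA. Over all genes tested it held for 665 of 11153 in RPF and 213 of 8379 in RNA. After adjustment 0 of these markers passed.

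*Ide* had the clearest separation of the 3 in footprints. The RPF WT libraries 1 to 3 held 692, 549 and 543 counts, or 140, 143 and 117 CPM. The RPF KO libraries held 1672, 1619 and 1177 counts, or 224, 234 and 250 CPM. The KO libraries lay close together and above the WT libraries, as the choice of the gene required. *Ide* footprints averaged 133 ± 14 CPM across WT and 236 ± 13 across KO (SD, n = 3 per group), a ratio of 1.77. In raw counts, KO 3 (depth 4704689) held 1177 of *Ide*, against 692 in WT 1 (4948766) and 543 in WT 3 (4649321). These are among the values that chose the gene and are given as description only.

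*Slc7a1* had fewer footprints and the least spread between replicates. The RPF WT libraries held 181, 138 and 188 counts, or 36.6, 36.1 and 40.4 CPM. The RPF KO libraries held 456, 470 and 282 counts, or 61.0, 68.0 and 59.9 CPM. Again the genotypes did not overlap, with the lowest KO library at 1.48 times the highest WT library. Footprints averaged 37.7 ± 2.4 CPM across WT and 63.0 ± 4.4 across KO (SD, n = 3 per group), a ratio of 1.67.

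*Gm20594* had the largest mean ratio and the largest spread. The RPF WT libraries held 570, 738 and 496 counts, or 115, 193 and 107 CPM. The RPF KO libraries held 1666, 1792 and 1638 counts, or 223, 259 and 348 CPM. WT 2 stood above the other WT libraries and KO 3 above the other KO libraries, and the gap between WT 2 and KO 1 was the smallest between the genotypes among the 3 genes (1.16 times). The averages were 138 ± 47 CPM for WT and 277 ± 64 for KO (SD, n = 3 per group), a ratio of 2.00. Without WT 2 the log2 ratio was 1.32 in place of 1.00.

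**Figure D2:**
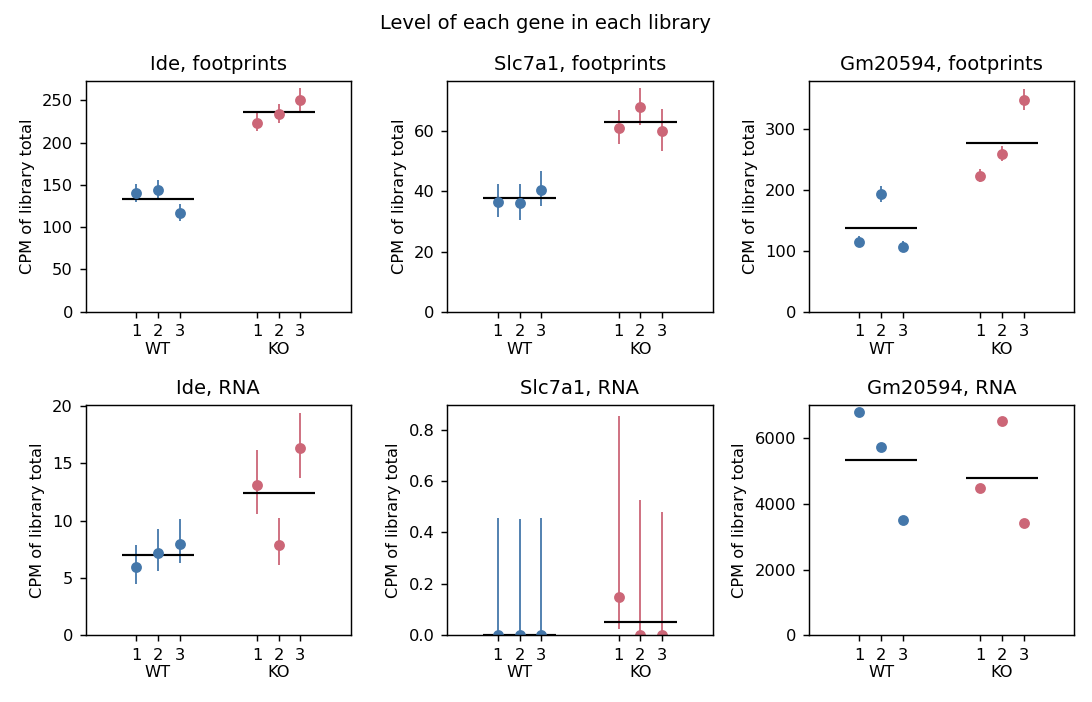
Level of each gene in CPM of the library total (vertical axes, from 0) in the 3 WT and 3 KO libraries of each assay, with library numbers below. Points are libraries with Wilson 95% intervals and lines are group means: all KO footprint points lie above all WT points in the top row, while RNA points of the genotypes overlap in the bottom row.

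Separation of this kind was not rare. Of 11153 genes tested in RPF, 6.24% had every KO library above every WT library and 5.74% every KO library below. Among the 7951 genes with a mean of at least 50 RPF counts, ranked by the lowest KO over the highest WT library, *Ide* was number 2 (ratio 1.56), *Slc7a1* number 5 (1.48) and *Gm20594* number 86 (1.16). By the ratio of means they were numbers 33, 52 and 10. Of the 7951 genes, 538 had a ratio above 1, and the rule took only some of these. Around a ratio of 1, *St8sia4* was the last gene above (1.0001) and *Sdhb* the first below (0.9996). In the ranking *Ide* stood between *2210407C18Rik* (1.65) and *Gm12830* (1.51), and *Slc7a1* between *Manea* (1.49) and *Inka2* (1.47). *Gm20594* stood between *Cox19* (1.157) and *Wdr11* (1.156). Of these 6 neighbours the largest mean was 206 RPF counts, against 1042 for *Ide* and 286 for *Slc7a1*, so both had more counts behind their ratios than these neighbours. With edgeR's quasi-likelihood test and its Benjamini-Hochberg adjusted p, the RPF comparison called 0.00897% of genes at the 0.05 threshold, which was *Rpl3l* alone.

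**Figure D3:**
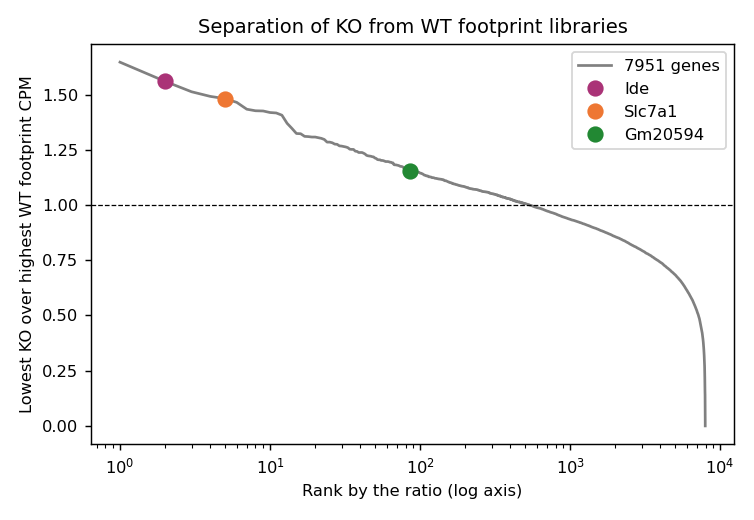
Ratio of the lowest KO to the highest WT footprint library (vertical axis, in CPM of library totals) against its rank among 7951 genes (log axis). Above the dashed line at 1 the libraries of the genotypes do not overlap, and Ide, Slc7a1 and Gm20594 lie above it at ranks 2, 5 and 86.

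The RNA of *Ide* was low and variable. The RNA WT libraries held 50, 61 and 67 counts, or 5.96, 7.21 and 7.98 CPM of library totals. The RNA KO libraries held 87, 58 and 131 counts, or 13.1, 7.92 and 16.3 CPM. KO 1 and KO 3 lay above all WT libraries, while KO 2 lay level with WT 3. *Ide* RNA averaged 7.05 ± 1.0 CPM across WT and 12.5 ± 4.2 across KO (SD, n = 3 per group), a ratio of 1.77, the same factor as in footprints. The exact two-sided permutation test of the log2 levels gave p = 0.2, where 3 against 3 libraries cannot go below 0.1.

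The scaling bears on that ratio. On library totals the median RNA log2 fold change of all genes was 0.13, and with TMM factors (edgeR's trimmed-mean scaling) it was -0.01. With TMM factors the *Ide* RNA levels were 7.17, 7.92 and 7.02 CPM in WT and 12.9, 8.69 and 13.3 CPM in KO, so that the genotypes no longer overlapped (exact permutation p = 0.1). The share of all 8379 genes with that order was 4.73% on library totals and 4.14% with TMM factors. By edgeR's quasi-likelihood test, *Ide* RNA differed by 0.66 on the log2 scale (SE 0.21, KO over WT), with an unadjusted p of 0.012 and an adjusted p over all genes of 0.999. That test called 0.0119% of genes in RNA, again *Rpl3l* alone, so the *Ide* RNA difference did not pass it. The atrial markers had a median RNA log2 fold change of 0.63, near the *Ide* estimate, and their part in it was not tested. Under the alternatives run, the estimate ranged from 0.55 to 0.82 and the adjusted p from 0.537 to 1.

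The higher *Ide* RNA values came from libraries on the same side of the RNA component. On the side of WT 3, KO 1 and KO 3 the levels were 7.98 CPM in WT against 13.1 and 16.3 CPM in KO. On the other side they were 5.96 and 7.21 CPM in WT 1 and WT 2 against 7.92 CPM in KO 2. KO was therefore above WT on both sides, with 1 WT or 1 KO library each. With the side as a factor the log2 fold change was 0.58 (edgeR adjusted p 0.578).

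*Slc7a1* RNA could not be compared. Its RNA counts were 0 in each of the 3 WT libraries and in KO 2 and KO 3, and 1 in KO 1. At these depths 3 counts correspond to between 0.355 and 0.452 CPM, so a level below that is not detectable, and no fold between genotypes is given. The gene was not among the 8379 tested in RNA. In WT, with 507 footprint counts against 0 RNA counts, the exact 95% interval of the ratio of the footprint share to the RNA share began at 257. In KO, with 1208 footprint counts against 1 RNA count, that ratio was 1391 with an exact 95% interval from 249 to 54976. Both intervals cover counting error only.

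Footprints with almost no RNA were seen in other genes as well. Including *Slc7a1*, 17 genes had a mean of at least 100 RPF counts and at most 3 RNA counts over the 6 RNA libraries. Their median footprint ratio, KO to WT, was 0.966. *Slc7a1* had the highest at 1.67, and the next was 1.11. It was also the 1 gene of the 17 with every KO library above every WT library, an order seen in 6.24% of all genes tested in RPF. Both values come from the footprints for which *Slc7a1* was chosen. Which part of a transcript was counted is not given in the sources used here, and its part in the missing RNA counts was not tested.

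*Gm20594* had abundant RNA counts that were not higher in KO. It ranked number 16 of 21669 rows by RNA counts and took 0.508% of them. The RNA WT libraries held 57039, 48489 and 29618 counts, or 6798, 5732 and 3529 CPM. The RNA KO libraries held 29757, 47714 and 27444 counts, or 4485, 6518 and 3421 CPM. The genotypes overlapped throughout, with the highest library in WT and the lowest in KO. *Gm20594* RNA averaged 5353 ± 1667 CPM across WT and 4808 ± 1574 across KO (SD, n = 3 per group), a ratio of 0.898 (exact two-sided permutation p = 0.7). In edgeR's test the log2 fold change was -0.30 (SE 0.39, adjusted p = 0.999), so the RNA gave no rise to match the footprints, and the sign of the estimate turned to 0.02 without WT 1.

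The *Gm20594* RNA levels were separated by the split of the RNA libraries and not by genotype. WT 3, KO 1 and KO 3 held between 3421 and 4485 CPM, and WT 1, WT 2 and KO 2 between 5732 and 6798 CPM, with no overlap. The split was drawn from these same libraries, and the share of all genes that it separates was not counted. Whether this separation is particular to *Gm20594* therefore cannot be said. With the side as a factor the log2 fold change was 0.10 (edgeR adjusted p 0.974). The mitochondrially encoded mRNAs together took 56.9%, 58.2% and 53.4% of counts in RNA WT 1 to 3 and 57.6%, 56.9% and 49.8% in RNA KO 1 to 3. They did not show the same split, since KO 1 lay between WT 1 and WT 2.

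In footprints the mitochondrially encoded mRNAs took 3.16%, 2.28% and 4.08% of counts in WT and 5.22%, 3.0% and 2.54% in KO, and the genotypes overlapped. Counted per 1000 footprints of these mRNAs, *Gm20594* had 3.64, 8.45 and 2.62 in WT and 4.27, 8.65 and 13.7 in KO. On that scale the genotypes overlapped, with WT 2 close to KO 2 and above KO 1. Of the 10 mitochondrially encoded rows, 0 had KO footprints wholly above WT (6.24% of all genes) and 0 passed edgeR's test, with a median log2 fold change of 0.30 against 0.00 over all genes. Of 1249 rows named Gm and a number, 18 were tested in RPF. Of these, 2 had every KO library above every WT library, *Gm20594* among them by choice, and 3 every KO library below. Over all genes these orders held for 6.24% and 5.74%. The median log2 fold change of the 18 was -0.24. No other row with such a name held as many counts as *Gm20594*: the largest held 690 summed RPF counts and 8198 summed RNA counts.

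**Figure D4:**
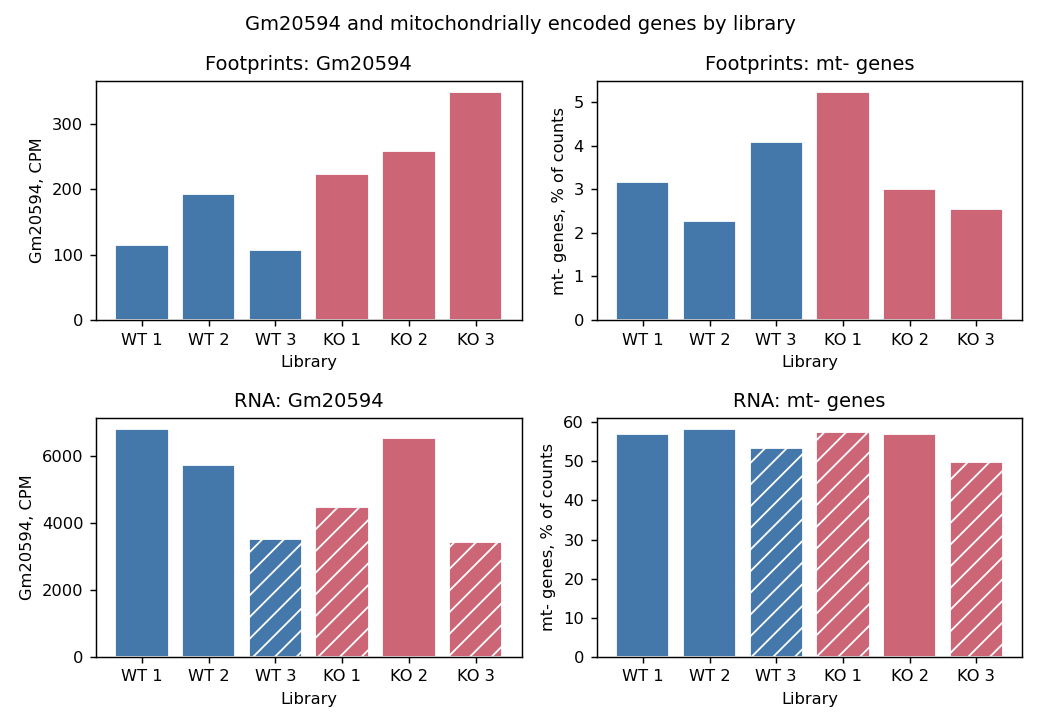
Gm20594 level in CPM (left) and the share of counts in the 10 mitochondrially encoded genes (right) in each footprint library (top) and RNA library (bottom), WT in blue and KO in red. Hatched RNA bars are the libraries on 1 side of the first RNA component (WT 3, KO 1 and KO 3), which hold the 3 lowest Gm20594 RNA levels.

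Set side by side, the ratios of footprints to RNA differed widely between the genes. These are descriptions, since they contain the footprint values that chose the genes. For *Ide* the log2 ratio of footprint CPM to RNA CPM was 4.24 in WT and 4.24 in KO, a difference of 0.00, while the median gene of 8044 had 1.76 in WT and 1.63 in KO, a difference of -0.14. With TMM factors the *Ide* difference was 0.17, and it ranged from -0.23 to 0.20 on leaving out a library, changing sign without KO 2 and without WT 3. For *Gm20594* the log2 ratio was -5.28 in WT and -4.12 in KO, a difference of 1.16. That placed *Gm20594* at number 8039 of 8044 in WT, among the genes with the fewest footprints for their RNA counts. *Ide* was at number 868. Leaving out a library moved the *Gm20594* difference between 0.76 (without KO 3) and 1.48 (without KO 2).

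**Figure D5:**
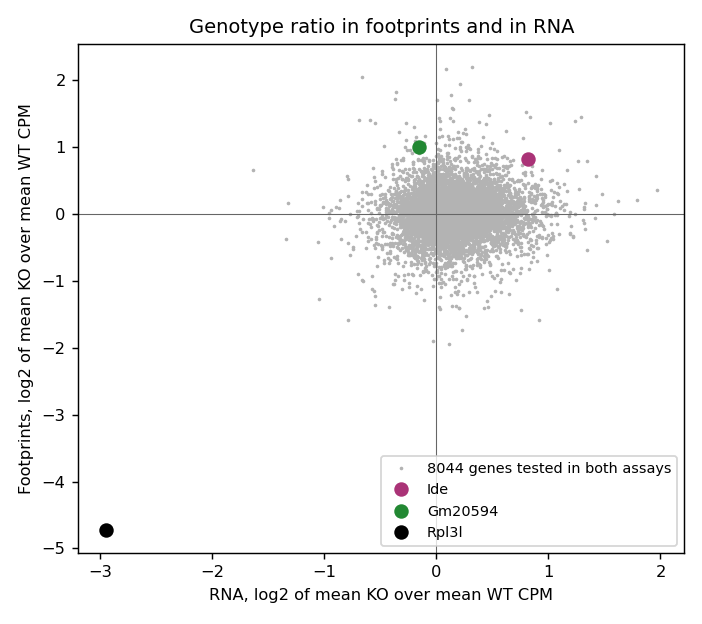
Log2 ratio of mean KO to mean WT level in footprints (vertical axis) against the same in RNA (horizontal axis), both on library totals, for the 8044 genes tested in both assays. Ide lies at 0.82 on both axes, Gm20594 at 1.00 in footprints and -0.15 in RNA, and Slc7a1 is absent because it has no RNA level.

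Per length the order of the genes was the same in both genotypes. Footprints per kilobase of transcript were 308 ± 106 CPM in WT and 616 ± 144 CPM in KO for *Gm20594*, 26.9 ± 2.9 and 47.6 ± 2.7 for *Ide*, and 5.25 ± 0.33 and 8.77 ± 0.61 for *Slc7a1* (SD, n = 3 per group). Per kilobase of coding sequence *Ide* had 45.1 ± 4.9 CPM in WT and 79.7 ± 4.5 in KO, and *Slc7a1* 20.2 ± 1.3 and 33.8 ± 2.4. These steps between the genes were larger than the spread between libraries.

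Likeness of pattern was measured by Pearson's r of log2 CPM with TMM factors, for all r values given here. The genes most like each member over the 6 RPF libraries were sought among the 7951 genes above. For *Ide* these were *Ptpn12* (r = 0.989), *Noct* (0.981) and *Pm20d2* (0.969), and for *Gm20594* *Nup160* (0.990), *Recql* (0.979) and *Pm20d2* (0.975). For *Slc7a1* they were *Mia2* (0.993), *Ctnnb1* (0.988) and *Rps6kb1* (0.988). Their own footprint ratios, KO to WT, ran from 1.14 (*Nup160*) to 1.59 (*Recql*), below those of the genes they resembled. Between the 3 members r was 0.916 for *Ide* with *Gm20594*, 0.916 for *Ide* with *Slc7a1* and 0.768 for *Gm20594* with *Slc7a1*. All of these values share the same 6 libraries, and the members were chosen for the order of the genotypes in them. Over all 12 libraries the closest genes were *Anpep* for *Ide* (r = 0.996), *Mrpl42* for *Gm20594* (0.990) and *Scyl2* for *Slc7a1* (0.998), over points that include the difference between the assays.

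Genes related to *Ide* and *Slc7a1* were counted in lists, beside an edgeR call rate over all genes of 0.00897% in RPF and 0.0119% in RNA, at which 0 calls in a list says little about it. Of the 6 other M16 peptidases, all tested in RPF, 0 passed edgeR's test and 0 had non-overlapping genotypes, with a median log2 fold change of 0.00. They include *Uqcrc1* (2750 ± 116 CPM for WT, 2737 ± 54 for KO, SD, n = 3 per group) and *Uqcrc2*, core subunits of respiratory complex III, and *Pmpcb*, a subunit of the mitochondrial processing peptidase. Of 14 other peptidases that act on peptide hormones, 12 were tested in RPF and 0 passed, and 2 had every KO library above every WT library (6.24% of all genes). These were *Anpep*, aminopeptidase N (34.2 ± 2.6 CPM in WT and 48.6 ± 0.91 in KO, log2 fold change 0.51), and *Lnpep*, the insulin-regulated aminopeptidase (163 ± 5.5 and 201 ± 36 CPM, 0.30). *Anpep* RNA was 1.66 ± 0.52 CPM in WT and 3.41 ± 1.2 in KO, with overlap. In RNA 0 of the 7 tested passed.

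Of 28 insulin signalling genes, all tested in RPF, 0 passed edgeR's test, with a median log2 fold change of -0.02. Every KO library lay above every WT library in 3 and below in 2, against 6.24% and 5.74% of all genes. Those above were *Irs2*, an insulin receptor substrate (15.6 ± 4.5 CPM in WT and 26.1 ± 3.8 in KO), *Tbc1d1*, a Rab GTPase-activating protein (21.9 ± 2.9 and 29.7 ± 3.6), and *Foxo1*, a transcription factor held in check by insulin (31.1 ± 2.0 and 39.6 ± 4.1; SD, n = 3 per group). Those below were *Grb10*, an adaptor that dampens insulin receptor signalling, and *Tsc2*, an inhibitor of mTORC1 signalling. The insulin receptor *Insr* itself had 165 ± 12 CPM of footprints in WT and 188 ± 23 in KO, with overlap. In RNA, 0 of 22 tested genes passed. *Insr*, *Foxo1*, *Tbc1d1* and *Tsc1* had every KO library above every WT library on library totals, where that order held for 4.73% of all genes and the opposite for 1.12%.

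Around *Slc7a1*, 16 other genes of the Slc7 family and its Slc3 partners were listed and 7 were tested in RPF. None of these 7 passed edgeR's test, with a median log2 fold change of 0.22. An unadjusted p below 0.05 was given for 0 of the 7, against 665 of all 11153 genes tested. *Slc7a4*, an orphan member of the family, was the 1 of the 7 with every KO library above every WT library (6.24% of all genes), at low levels (5.15 ± 1.2 CPM in WT and 8.02 ± 1.9 in KO, SD, n = 3 per group). *Slc7a2* had 6.42 ± 2.7 and 8.33 ± 0.57 CPM, with overlap. *Slc3a2*, the heavy chain that partners several light-chain transporters, had 96.7 ± 4.5 and 88.9 ± 6.0 CPM, and *Slc7a5*, a transporter of large neutral amino acids, 14.1 ± 6.1 and 10.3 ± 2.8 CPM. In RNA, 6 of the 16 others had no count, and 0 of 3 tested passed. The mean footprint levels of these 6 were at most 0.31 CPM in either genotype. *Slc7a1*, with 1 RNA count in all, had 37.7 CPM of footprints in WT and 63.0 in KO. *Slc7a7*, the light chain of a cationic and neutral amino acid exchanger, was the 1 of the 3 with every KO library above every WT library in RNA, against 4.73% of all genes (1.74 ± 0.14 and 3.02 ± 1.4 CPM).

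Of 27 amino acid transporters of other families, 22 were tested in RPF and 0 passed, with 1 of the 22 wholly higher, against 6.24% of all genes (*Slc38a9*, a lysosomal arginine sensor, 15.8 ± 0.87 CPM in WT and 25.1 ± 6.3 in KO) and 1 wholly lower, against 5.74% (*Slc6a9*, a glycine transporter). *Slc38a2*, a neutral amino acid transporter, had 444 ± 129 and 449 ± 9.9 CPM. In RNA, 0 of 11 passed, with *Slc38a3* and *Slc6a6* wholly higher and *Slc36a2* wholly lower, orders seen in 4.73% and 1.12% of all genes. Of 25 enzymes that use arginine or make nitric oxide and polyamines, 19 were tested in RPF and 0 passed. *Sat1*, which acetylates polyamines, was the 1 of the 19 with every KO library above every WT library (4.52 ± 0.93 and 8.22 ± 1.4 CPM), near the 6.24% of all genes. The endothelial nitric oxide synthase *Nos3* had 48.3 ± 10 CPM in WT and 47.6 ± 13 in KO in footprints. Its RNA was wholly higher in KO on library totals (9.82 ± 1.8 and 13.7 ± 2.5 CPM), 1 of 17 enzymes tested in RNA against 4.73% of all genes, and 0 of the 17 passed.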

How the data were processed

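The authors deposited 1 table per library, with untransformed read counts for each transcript name. Per the submitters' processing notes cutadapt 1.18 and Bowtie2 2.4.2 were used; the genome build, the region counted, strand and the handling of reads matching several places are not given in the sources used here. Of 21669 names, 21425 matched GENCODE M21 (GRCm38), which gave coordinates and sequences. Poly(A) RNA was selected before RNA library preparation, per the labels' protocols.

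CPM are counts per 1000000 of the library total unless TMM is named. Genes passing filterByExpr (minimum count 10) were tested, RPF and RNA separately with 6 libraries and a genotype term, with edgeR 4.0.16 (TMM, quasi-likelihood F test, Benjamini-Hochberg adjustment over all genes, threshold 0.05) in R 4.3.3, after a test on simulated data. DESeq2 1.42.0 was an alternative. Permutation tests used log2(CPM + 0.5). Intervals are Wilson 95%, floors 3 counts; both cover counting error only. Fold changes of named genes are edgeR's; ratios are of group means. Python 3.11.15 and Biopython 1.88 were used for the rest.

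The members and lists were chosen with earlier results of these data known. Named were the members, *Rpl3l*, the neighbours of each member in the ranking, the genes most like each, and of each list the genes whose genotypes did not overlap, or otherwise those with the highest footprint levels. *Slc7a2*, *Slc7a3*, *Slc7a5*, *Slc3a2* and *Slc38a2* fall outside that rule and were chosen after their values were seen. Alternatives were other scalings, filters, DESeq2, a replicate block, 1 fit of all 12 libraries, the side of the first RNA component, and leaving out each library. The labels give no link between same-numbered WT and KO libraries, and their deviations correlated at -0.18, 0.33 and 0.39 in RNA, so the numbers were not taken as pairs.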

Additional observations from a re-analysis of the deposited data

How the results depend on the processing

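The *Ide* RNA log2 fold change stayed positive and did not pass edgeR's test under all 15 alternatives run, with 0.82 on library totals and 0.65 under a replicate block (0.66 without it). On leaving out a library it ranged from 0.55 to 0.82. The *Gm20594* RNA estimate (-0.30) changed sign to 0.095 with the side of the first RNA component as a factor and to 0.022 without WT 1. On leaving out a library it ranged from -0.71 to 0.022, while the replicate block gave -0.29. For *Slc7a1* RNA, with 1 count in all, no value was taken from any alternative, the fit without a filter included.

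The footprint log2 ratios on leaving out a library ranged from 0.74 to 0.88 for *Ide*, 0.80 to 1.32 for *Gm20594* and 0.68 to 0.79 for *Slc7a1*, and other scalings moved them by less than the spread between replicates. The footprint-to-RNA difference between genotypes ranged from -0.23 to 0.20 for *Ide* and from 0.76 to 1.48 for *Gm20594*.

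Counts of genes called over the whole table changed: in RNA 4 without a filter and 6 with the component side, and in RPF 60 without a filter, 5 with DESeq2 and 4 with the replicate block. On leaving out a library 1 gene was called in RNA and from 1 to 2 in RPF. The causes were not tested. In RPF, same-numbered WT and KO libraries had correlations of 0.06, 0.03 and 0.01 in their deviations. Depth limits *Ide* RNA, with 50 to 131 counts a library, and *Slc7a1* RNA most.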
